A study of Mus musculus with 12 samples.

Results

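Interleukins are secreted signals by which immune and tissue cells address one another, and their receptors are assembled from chains that several cytokines share. The 76 genes described here are every measured gene whose symbol begins with Il and a digit, out of 25428 probe sets, leaving out the chains of the IL-4 and IL-13 receptors (3 of the 79 matching symbols). They were chosen by name, though with earlier results of these data known. The choice by name also took in Il4i1b, an amino acid oxidase gene induced by IL-4, and Il1bos, a transcript opposite to Il1b. Each gene had 1 probe set.

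Expression was measured on 12 Affymetrix arrays of mouse liver sinusoidal endothelial cells, 6 from control mice (genotype Ctrl, with alleles not stated) and 6 from NICD-OE-HEC mice, called NICD_OE here. NICD_OE mice carry Clec4g-Cre(tg/wt) and Rosa26-N1ICD-IRES-GFP, so that Cre driven from Clec4g, a lectin gene of liver sinusoidal endothelium, switches on the Notch1 intracellular domain. Each sample pooled livers of 3 mice and was enriched with magnetic beads against CD146; age and sex are not stated. The labels call the samples biological replicates, so their spread is that between pools. The question put to the interleukin genes is how they differ once Notch signalling is switched on in this endothelium. Values are log2 expression, where a difference of 1 is a doubling, and the median of an array was 3.67. No detection calls came with them, so a gene below that median cannot be separated from background.

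Members of the IL-1 family are made by myeloid and epithelial cells and are held in check by decoys and antagonists. Most act through receptors that share the chain encoded by Il1rap, and IL-18 acts through the chains of Il18r1 and Il18rap. IL-6 and most of its relatives signal through gp130, encoded by Il6st, which pairs with further chains, some particular to a cytokine and some shared. Most other interleukin receptors are built on the common gamma chain, the common beta chain or the chains of the IL-10, IL-12 and IL-17 systems. Sinusoidal endothelium takes part in hepatic immunity and lies beside Kupffer cells, the macrophages of the liver.

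Of the 76 members 5 rose and 2 fell in NICD_OE at an adjusted p under 0.05. The risers were Il1b, Il18, Il1f9, Il1r1 and Il1rl2, all of the IL-1 system, and the fallers were Il16 and Il6st. Together that was 9.21% of the members, against 10.5% of all probe sets, so the members changed at about the rate of the array as a whole. By direction, 6.58% of the members rose against 4.89% of all probe sets, and 2.63% fell against 5.59%. The median difference of the members was 0.01, and that of all probe sets -0.01. The groups did not overlap for 2 members, Il1r1 and Il16 (2.63%), against 6.68% of all probe sets (2.98% higher and 3.7% lower in NICD_OE). With a difference of at least 1 also required, 2 members passed, Il1b and Il1f9, against 2.09% of all probe sets. Differences ran from -0.90 to 1.18, and 69 of the 76 were smaller than 0.5 in either direction.

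**Figure D1:**
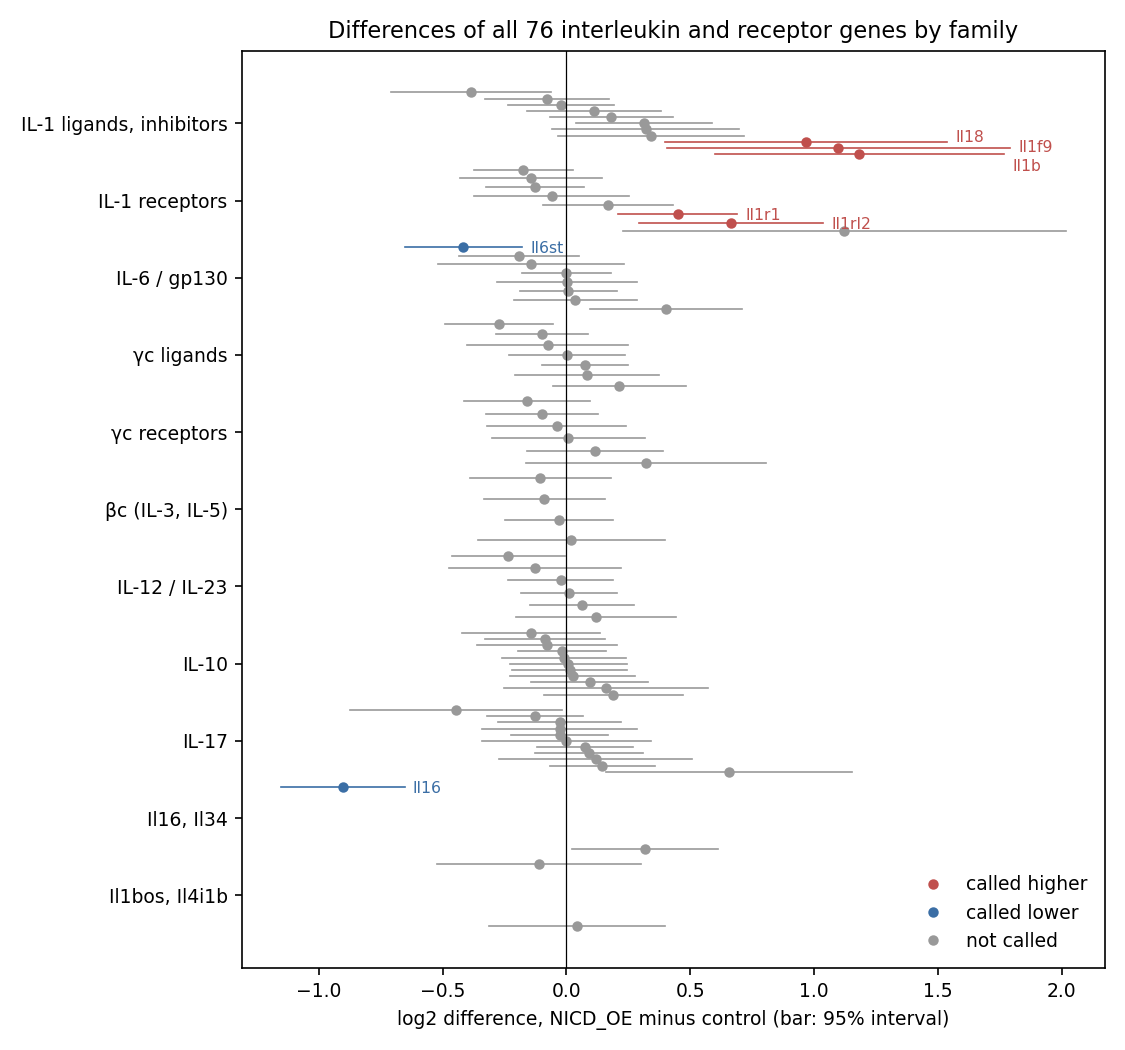
Difference of each of the 76 genes between NICD_OE and control on the log2 scale (points) with its 95% interval (lines), grouped by receptor family. The 5 genes that rose all lie in the 2 rows of the IL-1 system, and most other points lie between -0.5 and 0.5.

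Most members were low in these cells. Only 20 lay above the array median on all 12 arrays, 10 did so on some, and 46 lay below it on every array. Of the 20, 4 passed the test (Il1b, Il18, Il1r1 and Il6st), against 2129 of the 10955 probe sets above the median on every array. The other 3 passing genes, Il16, Il1f9 and Il1rl2, were above the median on some arrays. Of the 46, 0 passed with limma, against 10.5% of all probe sets, bright and dim. At an unadjusted p under 0.05, 1 of the 46 was higher and 1 lower. Il6, the inflammatory cytokine, was among the 46 at 1.61 ± 0.11 in control against 1.61 ± 0.11 in NICD_OE (SD, n = 6; 95% interval of the difference -0.18 to 0.18). Il7r, the IL-7 receptor of lymphocytes, was at 1.78 ± 0.18 and 1.74 ± 0.29 (-0.32 to 0.24). At such levels these intervals do not show whether either gene was expressed.

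All 8 listed sinusoidal markers lay above the array median on every array, with 1 higher and 7 lower in NICD_OE, and their mean ran from 11.005 to 11.32 in control and from 10.57 to 10.80 in NICD_OE. Of 12 neutrophil markers 10 rose and 0 fell, with a mean of 3.33 to 4.69 in control and 5.02 to 7.24 in NICD_OE, so that the groups did not overlap. Of the 12, 5 lay above the array median on every array (S100a8, S100a9, Mmp9, Csf3r and Cxcr2) and 7 on some. Among those 7, the granule genes Ltf and Camp and the surface marker Ly6g lay below it on all 6 control arrays. Of 11 macrophage markers 1 rose (7.61 to 8.90 against 7.78 to 9.27). All 11 macrophage differences were positive, and 3 were higher at an unadjusted limma p under 0.05. Of 9 hepatocyte markers 5 rose (6.42 to 7.99 against 7.35 to 8.87). Over all probe sets 4.89% rose and 5.59% fell. All 5 measured cholangiocyte markers rose (3.98 to 4.41 against 4.71 to 5.16), and their means did not overlap between the groups. Of 10 stellate cell markers 3 rose and 1 fell (4.58 to 5.78 against 5.38 to 5.97), of 7 general endothelial markers 1 rose and 3 fell (10.36 to 10.53 against 10.21 to 10.37), and of 10 monocyte and dendritic cell markers 2 rose and 2 fell. Among 14 T and NK cell, 7 B cell and 7 mast cell and basophil markers 0 passed with limma, 0 also at an unadjusted p under 0.05. Of 14 early-response genes, inducible by digestion of the tissue, 11 rose (6.43 to 7.76 against 7.64 to 9.25). In such bulk samples more cells of a type and more RNA per cell cannot be told apart. Control 2 and NICD_OE 4 were the least like the rest of their groups, with a mean correlation of 0.978 and 0.981 over all probe sets against 0.984 to 0.988 for the others.

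The 250 bases before the start of 4 IL-1 system genes are given because both Il1b and its neighbour Il1a, and the risers Il1f9 and Il1r1, hold the letters TGGGAA, the core to which RBPJ, the DNA partner of the Notch intracellular domain, binds. Capitals mark these letters, which read TTCCCA where the match is on the strand opposite to the gene. The sequences are from RefSeq on GRCm38.p6 and run 5′ to 3′ along the gene.
Il1b (chr2:129371140-129371389, minus strand): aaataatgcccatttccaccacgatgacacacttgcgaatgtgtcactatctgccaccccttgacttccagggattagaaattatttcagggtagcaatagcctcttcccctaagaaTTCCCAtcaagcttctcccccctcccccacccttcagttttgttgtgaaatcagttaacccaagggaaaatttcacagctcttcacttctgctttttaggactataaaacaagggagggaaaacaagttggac
Il1a (chr2:129309973-129310222, minus strand): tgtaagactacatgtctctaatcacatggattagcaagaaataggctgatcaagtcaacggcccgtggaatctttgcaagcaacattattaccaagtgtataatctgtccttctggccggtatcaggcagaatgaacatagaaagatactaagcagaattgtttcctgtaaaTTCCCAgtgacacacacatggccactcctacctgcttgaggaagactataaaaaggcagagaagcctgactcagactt
Il1f9 (chr2:24186226-24186475, plus strand): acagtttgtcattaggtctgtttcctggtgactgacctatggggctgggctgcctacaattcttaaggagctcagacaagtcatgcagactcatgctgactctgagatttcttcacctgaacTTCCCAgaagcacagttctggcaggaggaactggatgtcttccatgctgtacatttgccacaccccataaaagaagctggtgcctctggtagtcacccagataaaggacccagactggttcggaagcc
Il1r1 (chr1:40224830-40225079, plus strand): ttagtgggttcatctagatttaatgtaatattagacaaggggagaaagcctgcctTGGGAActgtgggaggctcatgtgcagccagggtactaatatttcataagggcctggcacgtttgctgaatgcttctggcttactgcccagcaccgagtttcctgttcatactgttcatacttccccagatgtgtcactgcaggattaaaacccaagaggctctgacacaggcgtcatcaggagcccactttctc

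The match lay 128 to 133 bases before the start of Il1b, 73 to 78 before Il1a, 123 to 128 before Il1f9 and 190 to 195 before 1 of the 2 listed starts of Il1r1. Il1a, which holds it too, did not pass the test. Of the 7 members that passed, 4 held TGGGAA on either strand before at least 1 of their starts (these 3 and Il16), and Il1rl2, Il18 and Il6st did not. Over the 59 members with a listed start 22 did (37.3%), against 24.1% of 27025 genes, or 21.6% of 32851 windows of this length. TGANTCA, the site of the early-response factor AP-1, was found for 13 of the 59 (22.03%) against 7.82% of genes and 6.75% of windows. Among the 7 that passed it was found only for Il16. Of the 4 sequences shown only that of Il1a held it, at 1 place that did not overlap TGGGAA. A match is a run of letters and not a bound site, and genes with several listed starts have more chances to hold one.

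IL-1 beta, the inflammatory cytokine encoded by Il1b, was higher in NICD_OE. Control arrays ran from 6.03 to 7.77 with a median of 6.73, and NICD_OE arrays from 7.16 to 8.51 with a median of 8.10. Control 1, the highest control, and control 5 (7.22) stood above NICD_OE 4, the lowest of its group, and there the groups overlapped. The rise was 2.27-fold (log2 difference 1.18, SE 0.27, adjusted p = 0.0102), and it ranged from 1.02 to 1.37 with single arrays left out, passing the test each time. Il1bos, opposite to it, differed by 0.04 (adjusted p = 0.932) and lay below the array median on every array.

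Il1b and the neutrophil markers were high on the same arrays. In control both stood in the same order, from control 1 through 5, 6, 2 and 3 to control 4. In NICD_OE arrays 1, 3 and 5 were the 3 highest for both, with Il1b at 8.30, 8.51 and 8.43 and a neutrophil mean of 7.24, 6.15 and 6.88. The arrays closest in neutrophil mean across the groups were control 1 (4.69), NICD_OE 2 (5.02) and NICD_OE 4 (5.10), and their Il1b levels were 7.77, 7.78 and 7.16. The part of neutrophils in the Il1b rise was not tested.

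IL-1 alpha, the other agonist of the same receptor, did not pass the test. Il1a ran from 9.35 to 10.002 in control (median 9.82) and from 8.97 to 9.86 in NICD_OE (median 9.38), so the groups overlapped widely. Its difference of -0.39 missed the threshold (SE 0.15, adjusted p = 0.135), but without NICD_OE 5, the highest of its group, it was -0.48 with an adjusted p of 0.0426. The receptor antagonist gene Il1rn differed by 0.31 (adjusted p = 0.156).

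The signalling receptor of both cytokines, Il1r1, rose by a small amount. Control arrays lay between 7.36 and 8.01 (median 7.92) and NICD_OE arrays between 8.10 and 8.45 (median 8.25). Every NICD_OE array stood above every control array, control 2 being far below the other controls. The rise was 1.37-fold (log2 difference 0.45, SE 0.11, adjusted p = 0.0169), and it stayed past the threshold with each array left out in turn (0.35 to 0.49). Il1rap, the shared second chain, was below the array median on every array and differed by -0.17 (adjusted p = 0.310).

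The decoy receptor Il1r2, which binds IL-1 without signalling, spread over NICD_OE arrays more than any other member. It ran from 2.22 to 3.43 in control (median 2.70) and from 3.02 to 5.71 in NICD_OE (median 3.50). NICD_OE 1, 3 and 5, the arrays with the most neutrophil marker signal, were at 4.78, 3.89 and 5.71, and the other 3 at 3.02 to 3.10 lay within the control range. The difference of 1.12 did not pass (SE 0.42, adjusted p = 0.115).

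**Figure D2:**
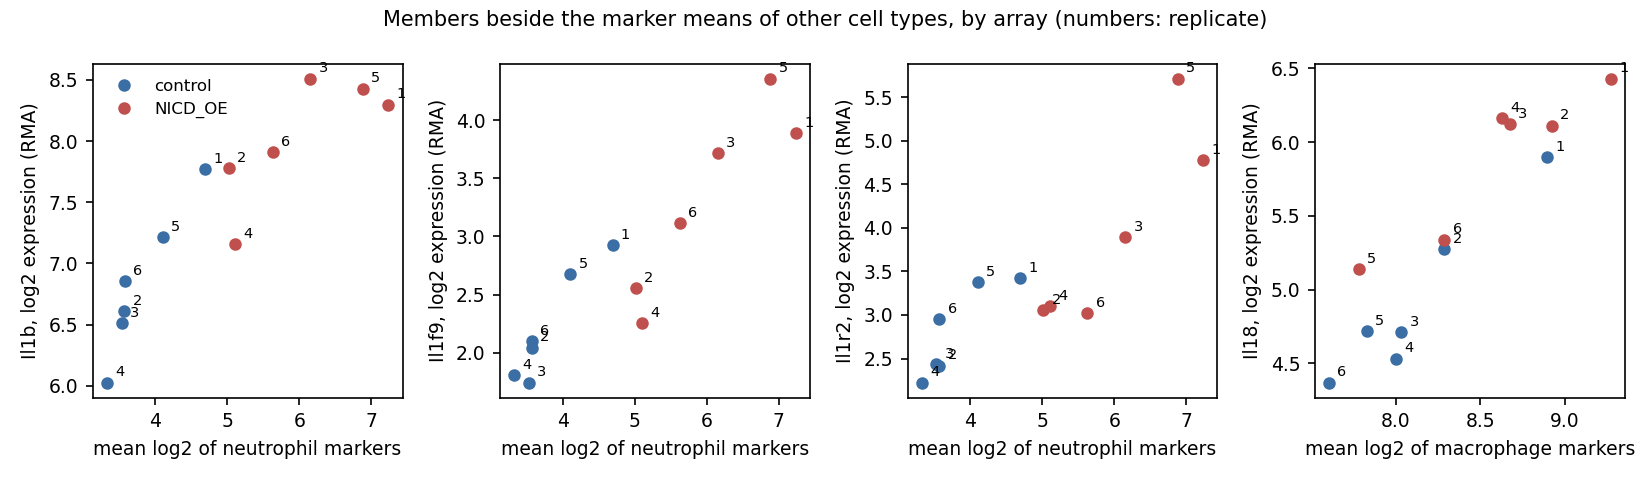
Log2 level of Il1b, Il1f9 and Il1r2 (vertical axes) against the mean log2 level of 12 neutrophil markers, and of Il18 against that of 11 macrophage markers, 1 point per array numbered by replicate, control blue and NICD_OE red. NICD_OE 1, 3 and 5 are highest both in neutrophil markers and in the 3 genes beside them.

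The IL-36 branch held a ligand and its receptor that both passed, at low levels. Il1f9 encodes IL-36 gamma, an epithelial and myeloid cytokine, and Il1rl2 the receptor of the IL-36 cytokines. Il1f9 ran from 1.74 to 2.92 in control (median 2.07) and from 2.26 to 4.36 in NICD_OE (median 3.42). It lay above the array median only on NICD_OE 1, 3 and 5, and the groups overlapped through NICD_OE 2 and 4. The difference was 1.10 (SE 0.32, adjusted p = 0.0422), of a size that is not exact since control could not be separated from background. The call was lost without any of control 2, 3, 4 or 6 or NICD_OE 1, 3, 5 or 6 (0.89 to 1.31 over single arrays left out). The order of its controls began with 1, 5 and 6, as did that of the neutrophil markers, whose part was not tested.

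Il1rl2 ran from 2.94 to 3.81 in control (median 3.46) and from 3.71 to 4.68 in NICD_OE (median 3.94). Of the controls only control 4 was above the array median, whereas all 6 NICD_OE arrays were, NICD_OE 6 standing highest and control 4 overlapping with NICD_OE 4. The difference was 0.67 (SE 0.17, adjusted p = 0.0213), and the call was lost without control 6 (0.60, adjusted p = 0.0559). The related ligands Il1f6 (-0.02) and Il1f8 (0.18) and the antagonist Il1f5 (0.11) were below the array median on every array and did not pass.

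Il18, a cytokine that macrophages hold ready as an inactive precursor, was higher in NICD_OE. It ran from 4.37 to 5.90 in control (median 4.72) and from 5.14 to 6.43 in NICD_OE (median 6.12), with control 1 and control 2 inside the NICD_OE range. The rise was 1.95-fold (log2 difference 0.97, SE 0.27, adjusted p = 0.0294). Its call lay near the threshold. It was lost without any of control 3, 4, 5 or 6 or NICD_OE 1, 2, 3 or 4. Over single arrays left out the difference was 0.86 to 1.16 and the adjusted p at most 0.0736. The call was lost also without control 2 and NICD_OE 4 together (0.98, adjusted p = 0.0531).

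Il18 and the macrophage markers were high on largely the same arrays. Control 1 and 2 were the highest controls for both, and NICD_OE 6 and 5 the lowest of their group for both. Where the groups were alike in macrophage mean, control 2 (8.29) and NICD_OE 6 (8.29) had Il18 at 5.27 and 5.34, control 1 (8.90) and NICD_OE 2 (8.92) at 5.90 and 6.11, and control 5 (7.83) and NICD_OE 5 (7.78) at 4.72 and 5.14. NICD_OE 3 (8.68) and NICD_OE 4 (8.63) had a lower macrophage mean than control 1 but more Il18, at 6.12 and 6.16. NICD_OE 5 likewise had a lower macrophage mean than control 3 (8.03) and control 4. Its Il18 was higher than theirs, at 5.14 against 4.71 and 4.53. The part of macrophages in the Il18 rise was not tested. The inhibitor gene Il18bp differed by 0.32 (adjusted p = 0.328), and the receptor chains Il18r1 and Il18rap, below the array median on every array, by -0.14 and 0.17. Il33, an alarmin stored in nuclei, differed by 0.34 (adjusted p = 0.286).

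**Figure D3:**
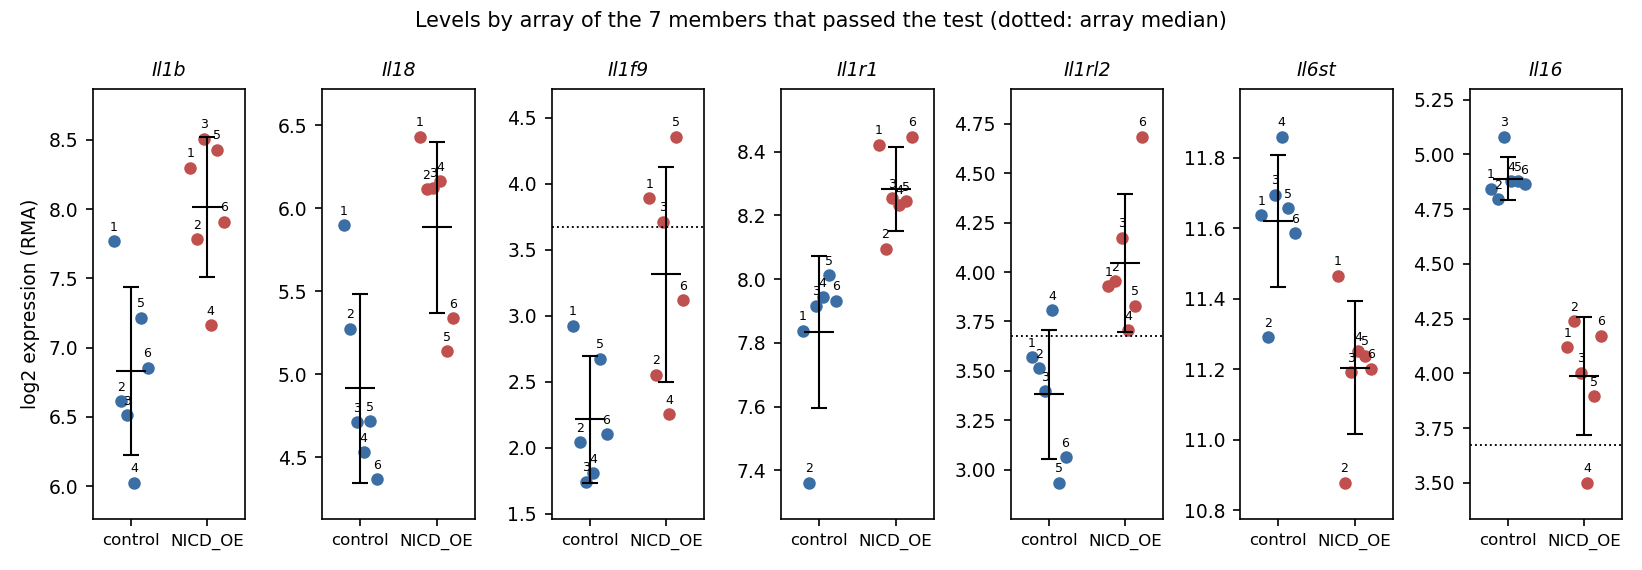
Log2 level of the 7 genes that passed the test on each array, numbered by replicate, with mean and SD of 6 arrays per group (black) and the array median (dotted). Each panel has its own vertical scale. The groups are apart for Il1r1 and Il16 and overlap for the other 5.

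In all, 5 of the 19 IL-1 system genes rose and 0 fell, with 7 higher and 1 lower at an unadjusted limma p under 0.05. Against 4.89% higher and 5.59% lower over all probe sets, that was 26.3% higher. Their median difference was 0.18. Outside that system 0 of 57 rose and 2 fell (3.51%), with 3 higher and 5 lower at an unadjusted p under 0.05, and a median of 0.00. The system joins the 2 families that held all 5 risers, so that 0 follows from where the line was drawn. The share of risers inside it is likewise no test. In the RefSeq gene order of GRCm38.p6 Il1r2, Il1r1 and Il1rl2 follow each other on chromosome 1. Il1a and Il1b lie side by side on chromosome 2, and Il1f8, Il1f9, Il1f6, Il1f5, Il1f10 and Il1rn form another run there.

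gp130, the shared signalling chain encoded by Il6st, was lower in NICD_OE. Control arrays lay between 11.29 and 11.86 (median 11.65) and NICD_OE arrays between 10.88 and 11.46 (median 11.22), overlapping through control 2 and NICD_OE 1. The fall was 1.33-fold (log2 difference -0.42, SE 0.11, adjusted p = 0.0242). It lost its call without control 3, control 4 or NICD_OE 2 (-0.48 to -0.35 over single arrays left out). The sinusoidal markers, 7 of 8 of which fell, moved the same way, and their part was not tested. The chain that brings IL-6 to gp130, Il6ra, had a mean of 5.48 ± 0.26 in control against 5.88 ± 0.28 in NICD_OE (SD over 6 arrays). Its difference of 0.40 missed the threshold (adjusted p = 0.0956), and passed without control 1 (0.50, adjusted p = 0.0251). Il27ra, which pairs with gp130 for IL-27, differed by -0.14 and the other ligands and chains of the branch by -0.19 to 0.04.

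Chains outside the member list that pair with gp130 differed more than gp130 itself. Cntfr, which binds ciliary neurotrophic factor, ran from 8.22 to 8.91 in control and from 5.51 to 6.63 in NICD_OE, a 5.5-fold fall (log2 difference -2.46, SE 0.21, adjusted p = 1.27e-06). Lifr, the leukaemia inhibitory factor receptor, ran from 10.63 to 11.08 and from 9.28 to 10.02, a 2.56-fold fall (-1.36, SE 0.13, adjusted p = 3.81e-06). Osmr, the oncostatin M receptor, rose (0.55, SE 0.13, adjusted p = 0.0113). These were the genes that passed among 14 measured partner chains and related ligands. That was 7.14% higher and 14.3% lower, against 4.89% and 5.59% of all probe sets. All 3 were among the 10 of the list above the array median on every array. Of all probe sets that bright, 2129 of 10955 passed in either direction. The ligand gene Osm differed by 1.33 without passing (adjusted p = 0.0667), again with NICD_OE 1, 3 and 5 highest at 6.56, 5.49 and 6.46. It passed without NICD_OE 2 (adjusted p = 0.0481), without NICD_OE 4 (0.0133) and without control 2 and NICD_OE 4 together (0.0248).

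**Figure D4:**
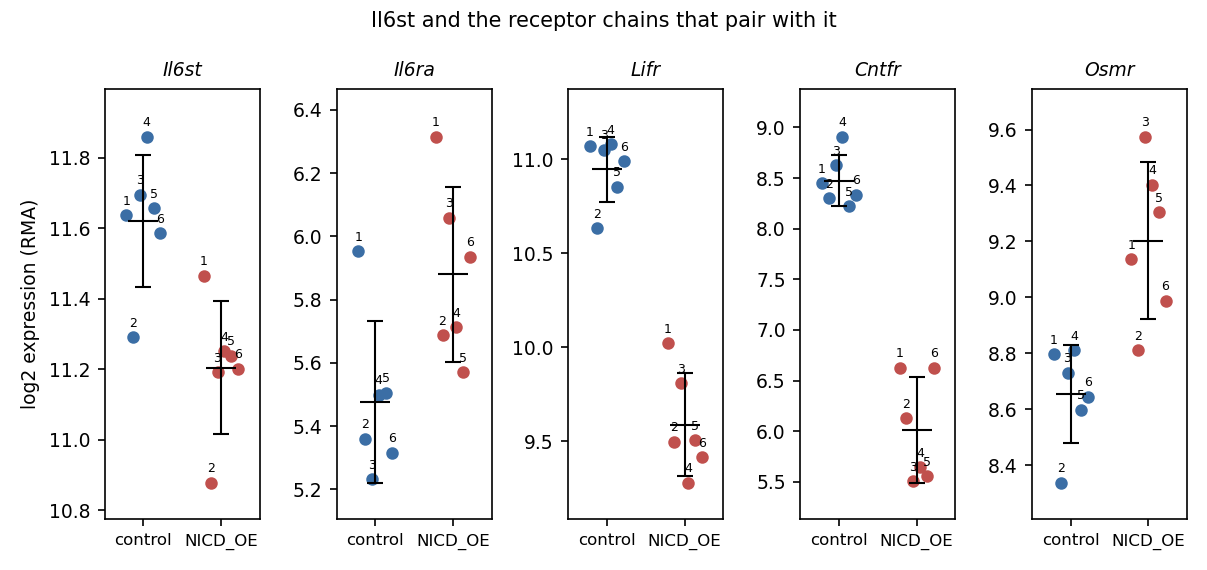
Log2 level of Il6st and of 4 chains that pair with its product on each array, numbered by replicate, with mean and SD of 6 arrays per group (black) and a vertical scale for each panel. Lifr and Cntfr lie apart between the groups, with NICD_OE lower, and Osmr lies higher in NICD_OE.

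Il16, the precursor gene of a chemoattractant for CD4 cells, fell. Control arrays were close together, from 4.80 to 5.08 (median 4.87), and NICD_OE arrays ran from 3.50 to 4.24 (median 4.06). No array of one group reached the other, and NICD_OE 4 fell below the array median. The fall was 1.87-fold (log2 difference -0.90, SE 0.12, adjusted p = 8.60e-05), and it passed with each array left out in turn (-0.95 to -0.80). Lymphocytes express the gene. T and NK cell markers were at 3.34 to 3.67 in control and 3.21 to 4.09 in NICD_OE, with 0 of 14 passing, and within NICD_OE arrays 1, 2 and 6 were the 3 highest for both. In control the orders differed, control 3 and 4 being the highest for Il16 and the lowest for these markers. The part of lymphocytes, or of the lower sinusoidal markers, in the fall was not tested. Il34, a ligand of the macrophage growth factor receptor, was below the array median on every array (0.32, adjusted p = 0.193).

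The other families gave no call. Of 45 genes of the gamma chain, beta chain, IL-12, IL-10 and IL-17 families 0 passed with limma, against 10.5% of all probe sets. At an unadjusted p under 0.05, 1 was higher and 3 were lower. These are families without a call, so the 0 follows from how they were put together. Of the 45 genes, 31 lay below the array median on every array. Il13 was counted with the gamma chain family, though its receptor does not use that chain. The largest difference was that of Il17ra, the shared IL-17 receptor chain, which ran from 3.72 to 5.46 in control and from 4.93 to 5.72 in NICD_OE (0.66, SE 0.23, adjusted p = 0.0954). It passed without control 1, its highest control (0.82, adjusted p = 0.0216), and NICD_OE 1, 3 and 5 were again its 3 highest arrays. Among the controls it was high on control 1 and then on control 4, the control with the least neutrophil marker signal. Its partner Il17rc differed by -0.44 (adjusted p = 0.209). In the gamma chain family the largest differences were those of Il9 (-0.27), a T cell cytokine below the array median on every array, and of Il2rb (0.32, adjusted p = 0.482), a chain for IL-2 and IL-15 on lymphocytes and NK cells. Il15, which sustains those cells, differed by 0.21 and its receptor Il15ra by -0.16, both above the array median on every array. In the remaining families they were those of Il12b (-0.23), Il5ra (-0.10) and Il10 (0.19), all without a call. Il10rb and Il3ra, receptor chains above the array median on every array, differed by 0.03 (95% interval -0.23 to 0.28) and -0.03 (-0.25 to 0.19). Il4i1b was below the array median on every array (-0.11, adjusted p = 0.824).

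Signalling partners of these receptors that passed were mainly lower. Of 51 such genes, in 4 lists, 3 rose (5.88%) and 9 fell (17.6%), against 4.89% and 5.59% of all probe sets, and their median difference was -0.05. The shares of all probe sets include many dimmer ones, whereas 44 of the 51 lay above the array median on every array. All 12 that passed were among these 44, and of 10955 probe sets that bright 2129 passed. Casp1, the protease that cuts the IL-1 beta and IL-18 precursors, fell from 7.37 ± 0.13 to 6.77 ± 0.18 (SD, n = 6 each; -0.60, adjusted p = 9.22e-04). Pycard, the adaptor that recruits it, fell by 0.42 (adjusted p = 0.0335). Tollip, an inhibitor of IL-1 receptor signalling named after its value was seen, and Traf3ip2, an adaptor of the IL-17 receptor, fell by 0.38 and 0.42. Nfkbiz, a nuclear regulator induced by IL-1, rose from 4.89 ± 0.40 to 6.22 ± 0.82 (1.33, adjusted p = 0.0116), with NICD_OE 5 highest at 7.75. That array also had the highest early-response mean, 9.25, whose part in the rise was not tested. The adaptor genes Myd88 (0.25) and Traf6 (-0.16) did not pass.

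Among 10 kinases and transcription factors of the JAK and STAT families 2 fell (20 percent, against 5.59% of all probe sets) and 0 rose, with 4 lower and 0 higher at an unadjusted limma p under 0.05. Of the 10, 9 lay above the array median on every array, the 2 that fell among them. Of all probe sets that bright, 2129 of 10955 passed in either direction. Jak2 fell from 8.05 ± 0.05 to 7.56 ± 0.08 (SD, n = 6 each; -0.49, adjusted p = 3.36e-04) and Stat5b by 0.38 (adjusted p = 0.0113), while Jak1 and Stat3, used by gp130, differed by 0.05 and 0.09. Of 12 feedback genes the phosphatase gene Ptpn6 rose (0.67, adjusted p = 0.0334) and Pias1, an inhibitor of STAT proteins, fell (-0.36, adjusted p = 0.0216), 8.33% in each direction against 4.89% and 5.59% of all probe sets. Socs3, which shuts off gp130, differed by 0.99 without passing (adjusted p = 0.0919), with NICD_OE 5 highest at 8.56, and passed without control 5 (adjusted p = 0.0225). Pycard lost its call without any single array other than control 1 or NICD_OE 1 or 2, and Traf3ip2 without any other than control 1 or 3 or NICD_OE 2. Ptpn6 lost it without control 3, 4, 5 or 6 or NICD_OE 1, 2 or 3, and Pias1 without control 3, control 4 or NICD_OE 2. Pycard and Traf3ip2 lost it also without control 2 and NICD_OE 4 together (adjusted p = 0.0944 and 0.0686), and Traf3ip2 with an intensity trend and robust variances (0.0516).

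Which members passed moved with single arrays. The count of risers fell from 5 to 2 without control 6 and to 3 without control 3, control 4, NICD_OE 1 or NICD_OE 3, and that of fallers from 2 to 1 without control 3, control 4 or NICD_OE 2. Il1b, Il1r1 and Il16 passed with every single array left out, whereas Il18 and Il1f9 each lost their call in 8 of 12 such fits. Without control 2 and NICD_OE 4 together, 6 of the 7 members passed, Il18 being the exception.

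**Figure D5:**
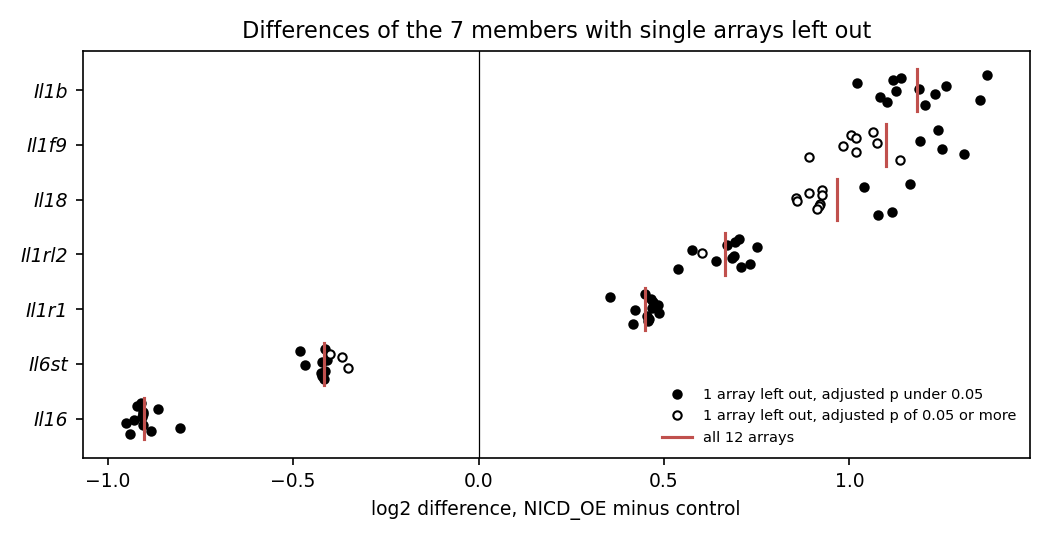
Log2 difference of the 7 genes with all 12 arrays (red line) and with each array left out in turn (points, filled where the adjusted p was under 0.05 and open where it was not). Every difference keeps its sign, and open points stand only in the rows of Il1f9, Il18, Il1rl2 and Il6st.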

How the data were processed

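The deposited values are log2 expression, 1 per probe set and array, which the authors made with RMA, per the submitters' processing notes. RMA corrects background, equalises the distributions of arrays and summarises probes. Software version, chip definition and build: not given in the sources used here. Quantiles were alike on all arrays, so a change of most genes in one direction would not show. Gene symbols came from the platform annotation of 2018. All 76 members matched RefSeq genes of GRCm38.p6 by Entrez identifier, with the same symbols.

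Differences (NICD_OE minus control) were fitted over all 25428 probe sets with limma 3.58.1 in R 4.3.3 (lmFit, eBayes, no covariates), unfiltered and two-sided, with Benjamini-Hochberg adjustment over all probe sets. SE is limma's moderated standard error. The number of arrays limits the precision. The fit was tested on simulated data.

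The members and lists were chosen with earlier results of these data known. The naming rule took Il1b, Il6, Il7r, every called member, every difference of at least 0.5, the largest difference of each family without a call, and up to 4 called genes of each signalling list. Other names (Il1a, Il6ra, Il18bp, Osm, Socs3 and their like) were added after their values were seen, to complete pairs. Alternatives were a further centring or quantile step, dropping the dimmest 25 or 50 percent, other variance models, the replicate block, left-out arrays, a difference of at least 1, and averaged probe sets.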

Additional observations from a re-analysis of the deposited data

Results flagged for a closer look

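Among the genes named by rule, 56 groups of 6 arrays were screened for a sample far from the others, and 2 were flagged, where chance flags about 1 in 20 groups. Control 2 had Il1r1 at 7.36, below the other controls, and without it the difference was 0.35 in place of 0.45 (adjusted p = 0.0142). Control 3 had Il16 at 5.08, above the other controls, and without it the difference was -0.86 in place of -0.90.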

How the results depend on the processing

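Differences of the named genes kept their sign under all alternatives run, except for Il6 (sign changed in 8 of 20 alternatives), Il7r (3 of 20), Il1bos (5 of 21), Il1f6 (3 of 20), Il10rb (5 of 22), Il3ra (4 of 22) and Jak1 (1 of 22), none of them called. Requiring a difference of at least 1 left 2 members higher and 0 lower (limma; 0 also at an unadjusted p under 0.05), and 1 signalling gene higher and 2 lower. Over single arrays left out, 2 to 7 members were higher and 1 to 3 lower, and 2 to 4 signalling genes higher and 6 to 9 lower. The labels do not say that replicate numbers mark shared batches, and the data do not settle it: deviations of same-numbered arrays correlated over 0.1 in 3 of 6 pairs and below 0 in the other 3 (-0.10 to 0.22), and 5 of 12 arrays correlated best with their own number. They were therefore not treated as pairs. With the replicate block 5 members were higher and 2 lower, and 5 signalling genes higher and 8 lower. Il1r2 (adjusted p = 0.0166), Osm (0.0146) and Socs3 (0.00706) then passed, and Il1rl2 (0.0568) and Pias1 (0.0587) did not. Osm passed also with array weights (0.0311) and without the dimmest 50 percent (0.0431). Il1f9 lost its call with an intensity trend (adjusted p = 0.0601) and could not be tested without the dimmest 50 percent, which left 24 members. The cause of these changes was not tested. Levels below the array median limit what can be said of 46 members.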
